A study of Mus musculus with 3 samples.

Results

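The levels of 10 transcription factors of the stomach and of the gut endoderm it arises from were read in single-cell RNA sequencing of the mouse hindstomach, the glandular stomach, at embryonic day 18.5. The genes are Sox2, Sox9, Nkx6-3, Spdef, Foxa1, Foxa2, Hnf4a, Gata4, Gata6 and Cdx2. They were found by symbol, and each of the 10, out of 46675 gene symbols in all, had molecules counted in each of the 3 libraries. One library was Shh-Cre;YAP5SA, a second was Shh-Cre;YaploxP/loxP (called Yap knockout here), and the third, the control, carried Shh-Cre alone, so that Shh-Cre is common to all of them. Shh-Cre directs recombination to cells that express or once expressed Sonic hedgehog, the embryonic gastric epithelium among them. In YAP5SA the phosphorylation sites through which the Hippo pathway holds the coactivator YAP inactive are mutated. The labels do not say how many embryos went into a library. There is 1 library per genotype, so no test between genotypes was possible: every interval below is a 95% interval that covers counting error only, and no difference has a replicate check.

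The endoderm is divided along its length by transcription factors. In the embryo Sox2 marks the foregut, including the stomach, and Cdx2 marks the intestine, and loss of either is known to let genes of the other territory appear. Foxa1 and Foxa2 are pioneer factors that open chromatin throughout the endoderm, Gata4 and Gata6 are zinc finger factors required for glandular stomach and other endodermal organs, and Hnf4a is a nuclear receptor that drives genes of differentiated gut and liver epithelium. Nkx6-3 and Spdef act later, within gastric and mucous lineages, and Sox9 is found in progenitors of many endodermal organs. The libraries ask how gains and losses of YAP bear on gastric epithelial cells.

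After filtering, 8518 YAP5SA, 4890 Yap knockout and 6959 control cells remained, with medians of 5224.5, 4979.5 and 4900 unique molecular identifiers (UMIs) per cell, each UMI standing for 1 captured mRNA molecule. Marker genes, none of them one of the 10 factors, placed 1735 YAP5SA, 928 Yap knockout and 710 control cells in the epithelium, with medians of 6373, 3570 and 3116 UMIs. The epithelial keratin Krt8, itself one of the gate's markers and so no independent check of the tissue, stood in those cells at 3969 CPM (a gene's UMIs divided by all UMIs of the summed cells and scaled to 1e6) in YAP5SA, 3151 CPM in the Yap knockout and 2845 CPM in the control. Fibroblast RNA was also present in them: the 6 fibroblast markers summed to 3092 CPM in YAP5SA, 1056 CPM in the Yap knockout and 7460 CPM in the control. Yap1 stood at 54.8 CPM in YAP5SA, 22.3 CPM in the Yap knockout and 47.4 CPM in the control epithelium, and a 3′ tag need not report a deleted exon or a transgene. The YAP target gene Ankrd1 was at 126 CPM in YAP5SA, 0.568 CPM in the Yap knockout and 0 in the control. Cell names are running numbers that recur between libraries, so the 2409 names shared by YAP5SA and control, for example, do not identify shared cells.

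The epithelium was made up of different cells in each genotype, which sets the frame for every pooled value. By markers, 45 YAP5SA, 296 Yap knockout and 285 control cells were pit cells, the surface mucous cells. Neck or chief cells of the glands numbered 16, 207 and 176, and acid-secreting parietal cells 4, 152 and 51. Squamous cells, the lining of the forestomach, numbered 329, 7 and 19, and intestinal cells 13, 34 and 16. Enteroendocrine cells numbered 0, 35 and 4. No subtype was assigned to 1299 YAP5SA cells, 74.9% of the epithelium there, against 197 Yap knockout and 159 control cells. The subtype names are weak in YAP5SA: its pit cells held Tff1, a secreted peptide of pit cells, at 2116 CPM, against 19552 CPM in Yap knockout and 20854 CPM in control pit cells, and its squamous cells held Krt5, a basal keratin, at 111 CPM, against 1618 CPM in control squamous cells. The subtype cut-offs were set in each library. For pit cells the cut-off on summed markers was 771 CPM in YAP5SA, 1600 CPM in the Yap knockout and 1659 CPM in the control. Pit ratios of YAP5SA over control thus compare cells admitted at different marker levels.

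Promoter sequence was held for 6 of the 10 genes, Sox2, Spdef, Foxa1, Foxa2, Hnf4a and Cdx2, in RefSeq windows of 300 bases around annotated starts (build GRCm38.p6; the counts were made on GRCm39). Those of the 3 genes among them that differed most between genotypes are shown. Spdef and Hnf4a were lower in YAP5SA than in the control, Foxa2 was higher there, and Hnf4a was higher in the Yap knockout. Capitals mark exact matches on either strand to GGAATG, the letters TEAD factors read, to AGATAA for GATA factors, to TGTTTAC for forkhead factors such as Foxa1 and Foxa2, and to AACAAT for SOX factors.
Spdef, minus strand, chr17:27728902-27729201: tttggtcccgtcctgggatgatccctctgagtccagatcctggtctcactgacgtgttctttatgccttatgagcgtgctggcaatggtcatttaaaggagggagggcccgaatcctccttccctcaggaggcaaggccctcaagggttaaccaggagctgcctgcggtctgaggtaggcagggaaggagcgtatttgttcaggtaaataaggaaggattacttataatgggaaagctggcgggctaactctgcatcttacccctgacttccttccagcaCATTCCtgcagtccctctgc
Foxa2, the 1 of 3 windows with a match, minus strand, chr2:148045415-148045714: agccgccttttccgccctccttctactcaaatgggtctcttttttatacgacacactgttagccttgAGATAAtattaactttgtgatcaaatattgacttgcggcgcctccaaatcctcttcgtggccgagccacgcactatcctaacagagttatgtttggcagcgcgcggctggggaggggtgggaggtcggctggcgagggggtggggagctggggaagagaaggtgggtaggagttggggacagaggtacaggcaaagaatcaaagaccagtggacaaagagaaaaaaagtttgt
Hnf4a, upstream window, plus strand, chr2:163506607-163506906: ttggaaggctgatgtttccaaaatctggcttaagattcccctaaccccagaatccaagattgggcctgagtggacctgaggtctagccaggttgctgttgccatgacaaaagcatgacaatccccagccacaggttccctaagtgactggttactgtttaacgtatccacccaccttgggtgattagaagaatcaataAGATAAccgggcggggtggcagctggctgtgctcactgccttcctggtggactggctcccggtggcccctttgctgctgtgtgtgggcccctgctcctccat
Hnf4a, downstream window, plus strand, chr2:163546905-163547204: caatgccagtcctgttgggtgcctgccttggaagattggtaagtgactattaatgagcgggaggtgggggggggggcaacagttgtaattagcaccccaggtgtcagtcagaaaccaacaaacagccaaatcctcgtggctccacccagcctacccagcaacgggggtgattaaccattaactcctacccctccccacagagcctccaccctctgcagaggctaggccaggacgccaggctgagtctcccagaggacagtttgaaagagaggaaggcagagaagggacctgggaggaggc
The Spdef window holds the TEAD letters once, on the opposite strand at bases 281 to 286, and 14.7% of 32851 promoter windows hold them. The Foxa2 window holds the GATA letters at bases 68 to 73 and the upstream Hnf4a window holds them at bases 199 to 204, against 11.2% of all windows. The other 2 Foxa2 windows and the downstream Hnf4a window hold none of the 4 motifs. Outside the sequences shown, Foxa1 and Cdx2 hold the forkhead letters on the opposite strand, against 3.65% of all windows, and Sox2 holds none of the 4. These matches are letters only and were not tied to binding. Hnf4a is known to start at alternative promoters, and UMIs counted at the 3′ end do not tell which of these starts was used.

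YAP5SA epithelium held less Nkx6-3, Spdef, Hnf4a and Sox9 than the control and more Foxa2, while the pooled ratios of Foxa1 and Sox2 had intervals that spanned equality. At least 5 CPM in either library was required for a call, which 9 of the 10 factors met and Cdx2 did not. Of those 9, 4 were at least 2-fold lower in YAP5SA (Sox9, Nkx6-3, Spdef and Hnf4a) and 1 was at least 2-fold higher (Foxa2). Over all 12808 genes measured in the same cells, 10.6% were at least 2-fold lower and 12.4% at least 2-fold higher. The median log2 ratio of the 9 factors was -0.71, beside 0.09 for all genes. Of the same 9, 1 in the Yap knockout was at least 2-fold higher (Hnf4a), against 5.18% of 12663 genes, and 0 were at least 2-fold lower, against 5.17%. For the Yap knockout the median log2 ratio of the 9 was 0.22, beside 0.05 for all genes.

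**Figure D1:**
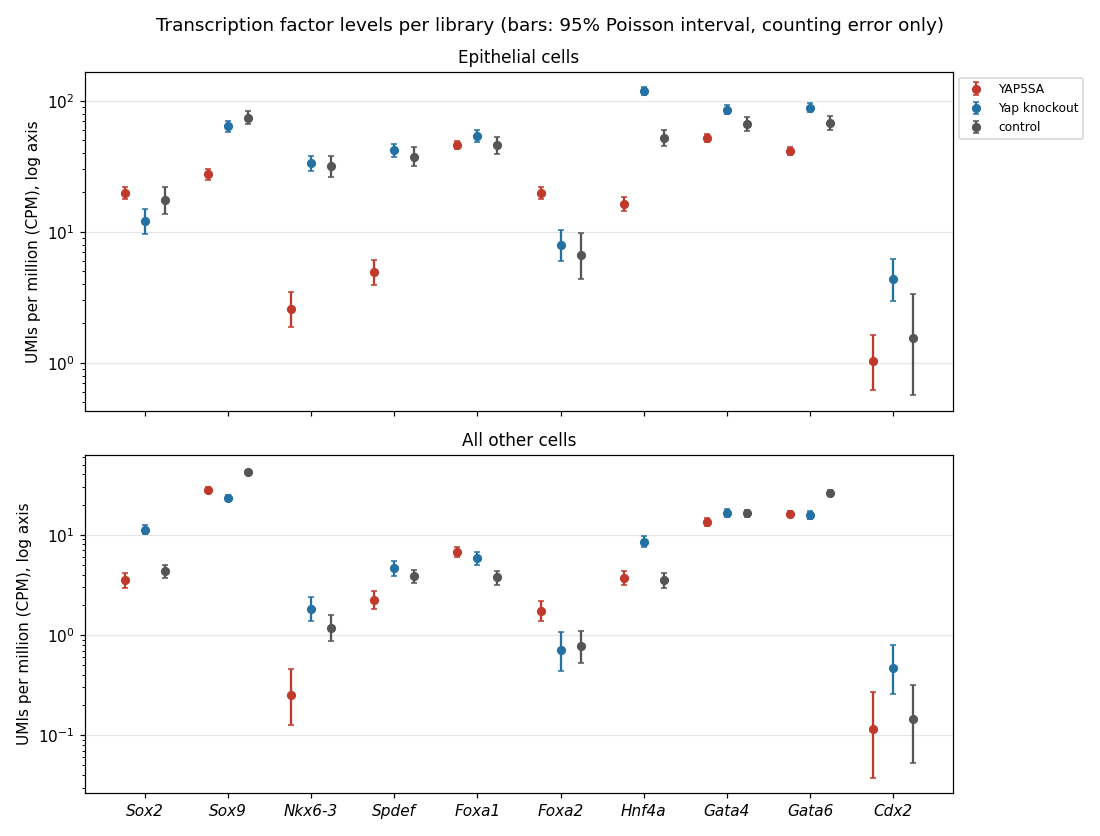
CPM (log axes) of each factor in epithelial cells (top) and in all other cells (bottom), 1 point per library with its 95% Poisson interval, YAP5SA in red, Yap knockout in blue and control in grey. In the epithelium Nkx6-3 lies at 2.60 CPM in YAP5SA, below the 31.7 CPM of the control, and Hnf4a at 119 CPM in the Yap knockout, above the 52.0 CPM of the control.

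Nkx6-3, a homeodomain factor of the distal stomach that is needed for gastrin-producing endocrine cells, showed the widest gap of the 10 in YAP5SA. It stood at 2.60 CPM (1.89 to 3.48) in YAP5SA, 33.5 CPM (29.4 to 38.1) in the Yap knockout and 31.7 CPM (26.3 to 37.8) in the control. YAP5SA was thus 12.2-fold (8.60 to 17.6) lower than the control, while the interval of the Yap knockout over control ratio, 0.847 to 1.33, spanned equality. A UMI of Nkx6-3 was found in 1.90% of YAP5SA, 11.5% of Yap knockout and 11.5% of control epithelial cells. In macrophages, which should lack the gene, the share was 0.179%, 0.761% and 0.261%. In cells without a subtype Nkx6-3 was 11.7-fold (5.30 to 24.9) lower in YAP5SA than in the control. Those are the cells that no subtype gate took, and their make-up may differ between libraries. In pit cells Nkx6-3 was 3.88-fold (1.44 to 14.7) lower, resting on 4 UMIs against 60. The 16 neck or chief cells of YAP5SA, however, held 8 UMIs or 48.0 CPM, against 25.9 CPM in control neck or chief cells. Those 16 cells carried Ankrd1 at 5.997 CPM from 1 UMI, and it was also low in YAP5SA pit cells, at 12.4 CPM, and squamous cells, at 13.1 CPM, against 163 CPM in the YAP5SA cells without a subtype.

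Spdef, an ETS factor that matures mucous and other secretory cells, was also lower in YAP5SA. It stood at 4.91 CPM (3.92 to 6.07) in YAP5SA, 41.9 CPM (37.3 to 47.0) in the Yap knockout and 37.6 CPM (31.8 to 44.2) in the control, so that YAP5SA was 7.66-fold (5.83 to 10.1) lower than the control. In cells without a subtype the difference was 8.40-fold (5.24 to 13.2), and in pit cells 2.52-fold with an interval of 0.909 to 9.71. Among subtypes, neck or chief cells had its highest level in both other libraries, 68.7 CPM in the Yap knockout and 53.4 CPM in the control. Genes tied to Spdef in secretory cells were lower as well in the pooled epithelium. Of 9 measured, 8 were at least 2-fold lower in YAP5SA and 0 higher, against 10.6% and 12.4% of all genes. Pit cells numbered 45 in YAP5SA against 285 in the control, and neck or chief cells 16 against 176. The list was not read within subtypes, and the part of cell make-up was not tested. Muc5b, a gel-forming mucin, stood at 15.2 CPM in YAP5SA against 1109 CPM in the control, and Clca1, a secreted protein of mucous cells, at 0.289 CPM against 10.6 CPM. Ern2, the stress sensor of mucous cells, stood at 3.00 CPM in YAP5SA against 88.9 CPM in the control. In the Yap knockout 0 of the 9 were 2-fold higher or lower, against 5.18% and 5.17% of all genes.

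Sox9 and Hnf4a were lower in YAP5SA by smaller factors. Sox9, a progenitor factor also used by mesenchyme, stood at 27.5 CPM (25.1 to 30.1) in YAP5SA, 63.8 CPM (58.0 to 70.0) in the Yap knockout and 74.4 CPM (66.1 to 83.5) in the control. It was 2.71-fold (2.33 to 3.14) lower in YAP5SA than in the control, and 1.17-fold lower in the Yap knockout, with an interval that ends at 0.997 for the ratio. Fibroblasts also held Sox9, at 44.0 CPM in YAP5SA, 55.2 CPM in the Yap knockout and 69.1 CPM in the control, a level below the epithelial one in the Yap knockout and the control and above it in YAP5SA. The mean profile of non-epithelial cells was also subtracted, at a share set by the level of Col1a1, Col1a2 and Col3a1 in epithelial over non-epithelial cells. That share was 28.6% in YAP5SA, 27.6% in the Yap knockout and 41.6% in the control. With the non-epithelial profile subtracted, Sox9 was 27.2 CPM in YAP5SA, 79.2 CPM in the Yap knockout and 97.5 CPM in the control. The 304 YAP5SA cells with a Sox9 UMI were 17.5% of the epithelium, near the 20.1% of the control, but YAP5SA cells were deeper, and after thinning every cell to 1000 UMIs the shares were 2.65% and 5.92%.

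Hnf4a was lower than the control in YAP5SA and higher in the Yap knockout, by at least 2-fold each way in the summed counts. With the non-epithelial profile subtracted, the Yap knockout no longer reached 2-fold, at 160.7 CPM against 86.7 CPM in the control, a log2 ratio of 0.88. It stood at 16.4 CPM (14.5 to 18.4) in YAP5SA, 119 CPM (111 to 127) in the Yap knockout and 52.0 CPM (45.1 to 59.7) in the control. YAP5SA was 3.17-fold (2.64 to 3.81) lower than the control and the Yap knockout 2.28-fold (1.96 to 2.67) higher. A UMI was found in 12.1% of YAP5SA, 36.9% of Yap knockout and 19.3% of control epithelial cells, and at 1000 UMIs per cell in 2.25%, 11.6% and 4.79%. In YAP5SA the difference was 3.66-fold (2.56 to 5.13) in cells without a subtype, whereas in pit cells Hnf4a stood at 30.9 CPM in YAP5SA against 41.6 CPM in the control, a ratio of 0.744 whose interval of 0.337 to 1.48 spanned equality. The Yap knockout ratio was above 2 in each of the 4 groups that could be compared: pit, neck or chief and parietal cells, and the cells without a subtype. Its interval excluded equality in 3 of these groups. In pit cells it was 2.15-fold (1.59 to 2.96), at 89.3 CPM against 41.6 CPM in the control. In neck or chief cells it was 2.39-fold (1.90 to 3.02), at 178 CPM against 74.8 CPM, and in cells without a subtype 2.84-fold (2.01 to 4.08). In parietal cells it was 2.76-fold with an interval of 0.971 to 10.8, from 29 UMIs against 4. The antisense transcript Hnf4aos overlaps Hnf4a and stood at 2.14 CPM in YAP5SA, 19.2 CPM in the Yap knockout and 3.35 CPM in the control. Strand use in counting is not stated in the labels or headers, so reads of the pair may be mixed. In non-epithelial cells Hnf4a was also higher in the Yap knockout, at 8.53 CPM against 3.51 CPM in the control.

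**Figure D2:**
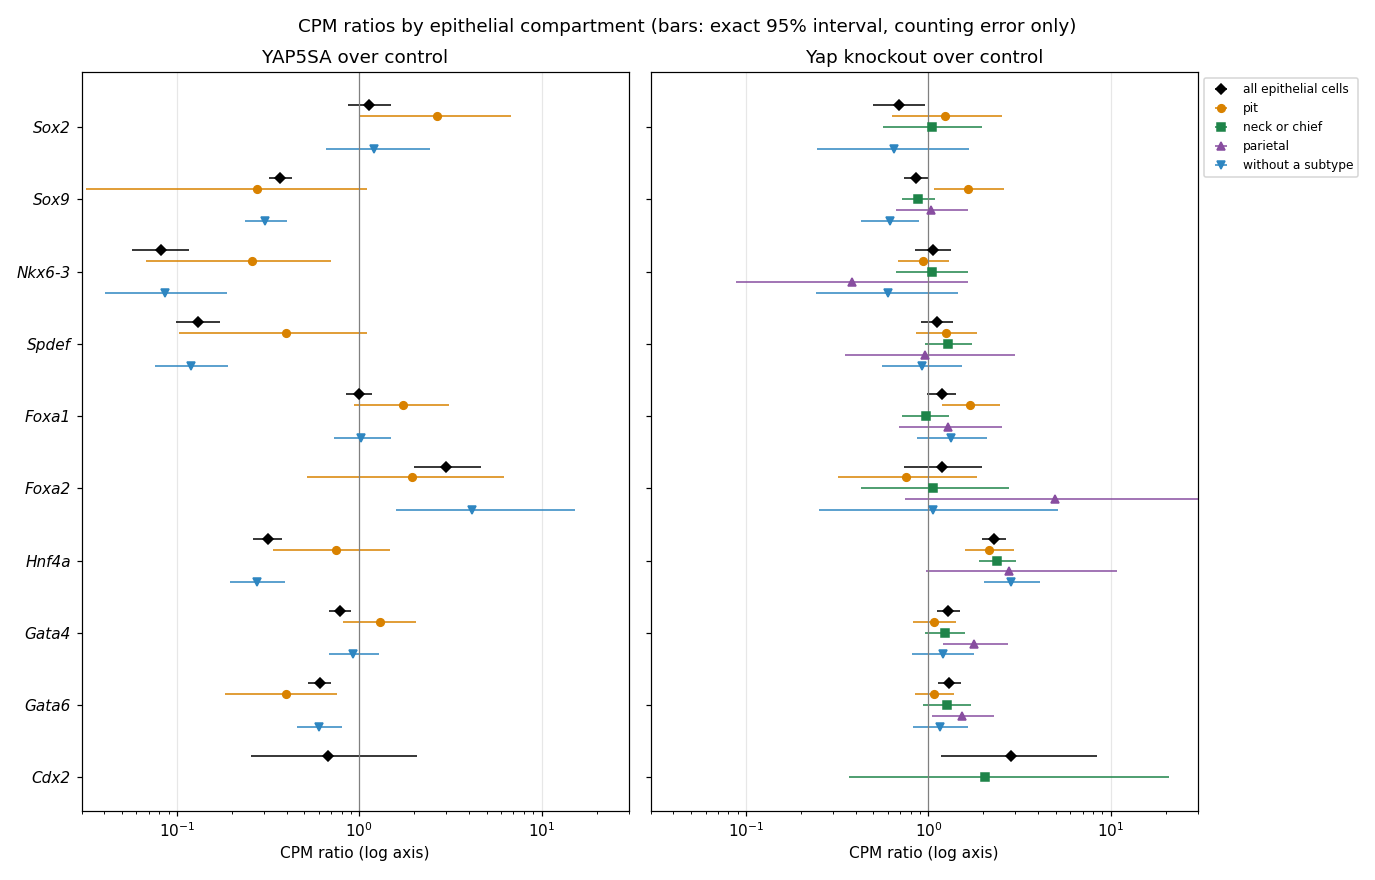
Ratio of CPM in YAP5SA over control (left) and Yap knockout over control (right), log axis, for each factor. Ratios are for all epithelial cells, and for the subtypes and the cells without a subtype with at least 30 cells in both libraries. Bars are exact 95% intervals and ratios with 0 UMIs on a side are not drawn. Hnf4a lies right of 1 in all 4 of these smaller groups of the Yap knockout, from 2.15 in pit to 2.84 in cells without a subtype. Nkx6-3 and Spdef lie left of 1 in YAP5SA.

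Genes regulated by Hnf4a in gut and liver were read beside it. Of 8 measured, 8 were at least 2-fold lower in YAP5SA, against 10.6% of all genes. Among them Apoa4, an apolipoprotein of lipid-absorbing cells, stood at 34.9 CPM in YAP5SA against 373 CPM in the control. In YAP5SA 567 of the 604 Apoa4 UMIs lay in 13 intestinal cells, and with squamous, intestinal, hepatic and pancreatic cells left out Apoa4 was at 2.10 CPM in YAP5SA against 92.4 CPM in the control, with 6 of 7 genes of the list at least 2-fold lower. The 51 parietal cells of the control held 272 of its Apoa4 UMIs, at 776 CPM, and YAP5SA had 4 parietal cells. In control pit, neck or chief cells and cells without a subtype Apoa4 stood at 17.6, 18.3 and 29.3 CPM, beside 28.0 CPM in non-epithelial cells. In YAP5SA it stood at 6.19 CPM in pit cells, 1.87 CPM in cells without a subtype and 3.35 CPM in non-epithelial cells. What cell make-up and RNA from other cells add to the gap was not tested. In the Yap knockout 7 of the 8 genes were at least 2-fold higher and 0 lower, against 5.18% and 5.17% of all genes. Apoc2, which activates lipoprotein lipase, stood at 547 CPM in the Yap knockout against 35.5 CPM in the control, and Fabp1, a fatty acid carrier, at 427 CPM against 58.2 CPM. Ttr, the thyroxine carrier, stood at 213 CPM in the Yap knockout against 305 CPM in the control. The Yap knockout counts rested on few cells. Its 34 intestinal cells, which were gated in part by Fabp1, held Apoa4 at 50217 CPM and Apoc2 at 10934 CPM. With squamous, intestinal, hepatic and pancreatic cells left out, a choice made after seeing the data, 3 of the 8 genes were at least 2-fold higher in the Yap knockout: Apob, Apoc2 and Apoc3. Apoc2 was then at 23.1 CPM in the Yap knockout against 6.79 CPM in the control, and Apoc2 also stood at 80.6 CPM in Yap knockout non-epithelial cells, against 8.06 CPM in the control's. Hnf4a itself stood without those cells at 118 CPM in the Yap knockout and 54.4 CPM in the control.

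Foxa2, a pioneer factor, was the 1 factor at least 2-fold higher in YAP5SA. It stood at 20.0 CPM (17.9 to 22.2) in YAP5SA, 7.95 CPM (6.01 to 10.3) in the Yap knockout and 6.70 CPM (4.37 to 9.81) in the control. YAP5SA was 2.98-fold (2.001 to 4.63) higher than the control, from 346 UMIs against 26. In cells without a subtype it was 4.13-fold (1.59 to 15.3) higher, though the control value rests on 4 UMIs. In pit cells the ratio was 1.93, from 5 UMIs against 10, and its interval of 0.519 to 6.21 spanned equality. Non-epithelial YAP5SA cells also held more Foxa2, 1.75 CPM against 0.775 CPM in the control, 2.26-fold (1.48 to 3.54) higher. At 1000 UMIs per cell a Foxa2 UMI was found in 1.79% of YAP5SA and 0.282% of control cells. Its relative Foxa1 stood at 45.7 CPM in YAP5SA, 54.1 CPM in the Yap knockout and 45.8 CPM in the control, and the YAP5SA over control ratio had an interval of 0.847 to 1.18. The pair was seen in the same cell in 125 of 1735 YAP5SA cells, 26 of 928 Yap knockout cells and 8 of 710 control cells; were the pair independent, 71.0, 11.9 and 3.95 cells would hold both. These joint counts rise with depth: at 1000 UMIs they were 2, 2 and 0.

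Gata4 and Gata6, which are needed for glandular rather than squamous stomach epithelium, were lower than the control in the pooled YAP5SA epithelium and higher in that of the Yap knockout, in each case by less than 2-fold. Gata4 stood at 52.0 CPM (48.6 to 55.5) in YAP5SA, 85.7 CPM (79.0 to 92.8) in the Yap knockout and 66.5 CPM (58.6 to 75.1) in the control. Gata6 stood at 41.3 CPM (38.3 to 44.4) in YAP5SA, 88.5 CPM (81.7 to 95.7) in the Yap knockout and 68.0 CPM (60.04 to 76.7) in the control. YAP5SA was 1.28-fold (1.11 to 1.47) lower than the control for Gata4 and 1.65-fold (1.43 to 1.90) lower for Gata6. In cells without a subtype the Gata4 ratio had an interval of 0.682 to 1.28, which spans equality, and Gata6 was 1.67-fold (1.24 to 2.20) lower. In pit cells Gata6 was 2.53-fold (1.32 to 5.45) lower in YAP5SA, while the Gata4 ratio was 1.31 with an interval of 0.811 to 2.04. In the Yap knockout Gata4 was 1.29-fold (1.11 to 1.497) and Gata6 1.30-fold (1.13 to 1.51) higher. Parietal cells had the highest level of each in the Yap knockout and were 152 of its 928 epithelial cells, against 51 of 710 in the control. Within parietal cells Gata4 stood at 158 CPM in the Yap knockout against 88.4 CPM in the control, and Gata6 at 148 CPM against 97.0 CPM, folds of 1.78 (1.20 to 2.72) and 1.53 (1.04 to 2.29). The median log2 ratio of all genes in that subtype was itself 0.33. In pit, neck or chief cells and cells without a subtype the intervals of both genes spanned equality. Gata5, another endodermal GATA factor, stood at 1.501 CPM in YAP5SA against 10.6 CPM in the control. The proton pump subunits Atp4a and Atp4b, which GATA factors activate in parietal cells, stood at 3.41 and 2.60 CPM in YAP5SA against 615 and 804 CPM in the control. YAP5SA had 4 parietal cells against 51. Both genes are among the markers that gated parietal cells, so their levels and these cell numbers are not independent.

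Sox2 differed between subtypes by more than it did between the pooled epithelia. It stood at 19.9 CPM (17.8 to 22.1) in YAP5SA, 12.1 CPM (9.64 to 14.9) in the Yap knockout and 17.5 CPM (13.6 to 22.2) in the control. The interval of the YAP5SA over control ratio was 0.872 to 1.49, and the Yap knockout was 1.45-fold (1.04 to 2.02) lower. In the control, 19 squamous cells held 25 of the 68 Sox2 UMIs, at 181 CPM, while its pit cells held 10.4 CPM and its neck or chief cells 14.5 CPM. In YAP5SA, 329 squamous cells held 29.4 CPM, the pit cells 27.8 CPM and the cells without a subtype 17.5 CPM. With squamous, intestinal, hepatic and pancreatic cells left out, Sox2 was 11.997 CPM in the Yap knockout and 11.7 CPM in the control, so the lower pooled level in the Yap knockout was not found among the remaining cells. In YAP5SA Sox2 was then at 17.7 CPM against 11.7 CPM in the control, and within pit cells it was 2.68-fold (1.01 to 6.77) higher, from 9 UMIs against 13. The 329 YAP5SA squamous cells held Gata4 at 33.2 CPM, Gata6 at 27.7 CPM and Hnf4a at 10.8 CPM. The 19 control squamous cells held 0 UMIs of each, in a sum where 3 UMIs would make 21.8 CPM. That level is a floor rather than the end of an interval, and the YAP5SA Gata6 level lay not far above it. For Hnf4a no difference was detectable at this depth. Sox2 lies within the noncoding gene Sox2ot on the same strand, which stood at 7.33 CPM in YAP5SA, 11.5 CPM in the Yap knockout and 11.8 CPM in the control, and reads between them could be split.

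Cdx2, the intestinal factor, stood at no more than 3.12 CPM in the epithelial subtypes other than intestinal. Pooled, it had 18 UMIs in YAP5SA epithelium (1.04 CPM), 31 in the Yap knockout (4.40 CPM) and 6 in the control (1.55 CPM). The intestinal cells held 7 of those UMIs in YAP5SA, 24 in the Yap knockout and 4 in the control, which gave 60.03 CPM (24.1 to 124) in YAP5SA, 71.0 CPM (45.5 to 106) in the Yap knockout and 61.2 CPM (16.7 to 157) in the control. These intervals overlap widely, and a difference could not be detected from so few UMIs. In 1299 YAP5SA cells without a subtype Cdx2 stood at 0.857 CPM from 11 UMIs, and 0 UMIs were seen in 1 or more subtypes of each library, among them parietal and squamous cells. A cell with UMIs of both Cdx2 and Sox2 was seen 0 times in YAP5SA, 1 time in the Yap knockout and 0 times in the control, where independence would give 1.43, 0.770 and 0.190 cells, so at this depth exclusion of one by the other was not detectable. Of 6 intestinal genes regulated by Cdx2 and measured, 4 were at least 2-fold higher in the Yap knockout, against 5.18% of all genes. One was Lct, the lactase gene, at 44.6 CPM in the Yap knockout against 7.73 CPM in the control. With the intestinal and other named non-gastric cells left out, 3 genes of that list were measured and 1 of them, Lct, was at least 2-fold higher. Intestinal cells were 3.66% of the Yap knockout epithelium, 0.749% of the YAP5SA and 2.25% of the control epithelium, and how much duodenum each dissection held was not tested.

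**Figure D3:**
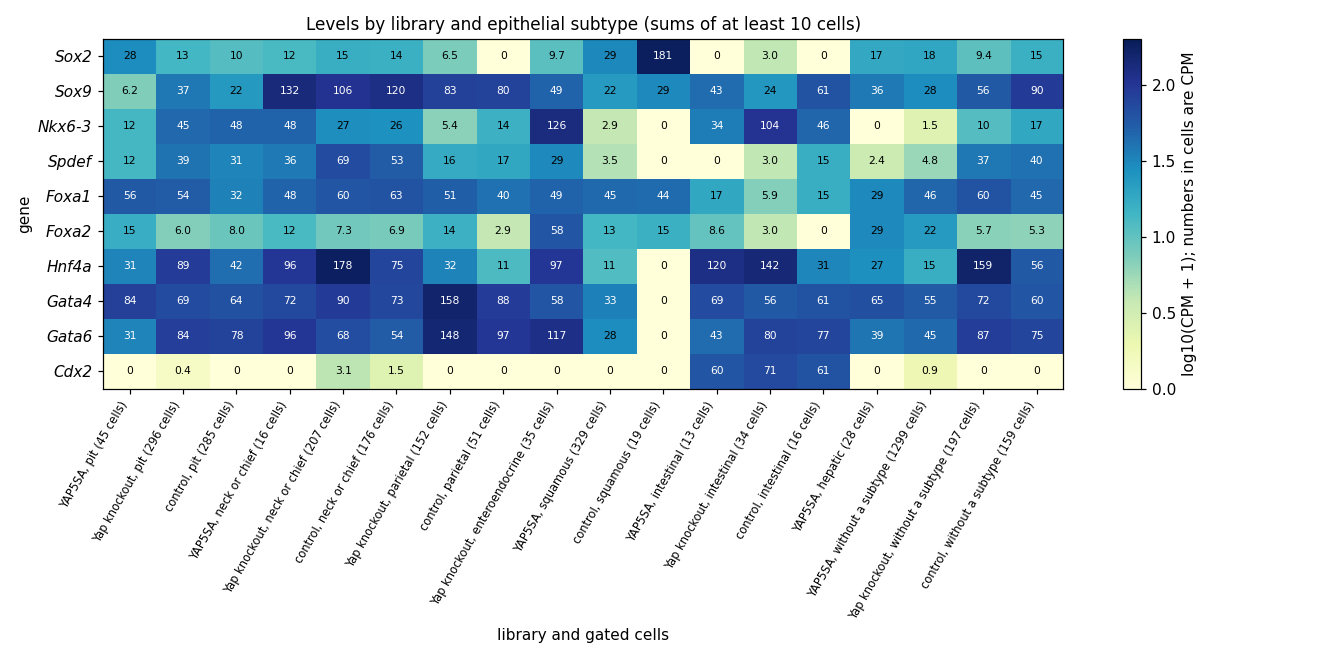
CPM of each factor (rows) in each library and epithelial subtype, or cells without a subtype, with at least 10 cells (columns, with cell numbers), coloured by log10(CPM + 1). Cdx2 is at 60.03 to 71.0 CPM in the intestinal cells and at most 3.12 CPM in the other columns, and Sox2 reaches 181 CPM in the control squamous cells.

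Levels were also ordered over the 13 sums of a library and a subtype, or of its cells without a subtype, with at least 30 cells. Sox9 was highest in neck or chief cells, at 106 CPM in the Yap knockout and 120 CPM in the control. It was lowest in the YAP5SA pit cells at 6.19 CPM. The Sox9 levels of those neck or chief sums did not differ beyond counting error, with a ratio interval of 0.712 to 1.09. Nkx6-3 was highest in Yap knockout enteroendocrine cells, at 126 CPM from 13 UMIs, followed by Yap knockout intestinal cells at 104 CPM and by pit cells at 45.0 CPM in the Yap knockout and 48.0 CPM in the control. Parietal cells held less of it, 5.44 CPM in the Yap knockout and 14.3 CPM in the control. Foxa2 was highest in Yap knockout enteroendocrine cells, at 58.3 CPM from 6 UMIs, and Foxa1 lay between 31.99 and 62.6 CPM in 12 of the 13 sums and at 5.92 CPM in Yap knockout intestinal cells. In the 28 YAP5SA cells gated as hepatic by albumin and related genes, Foxa2 stood at 28.9 CPM, Hnf4a at 26.5 CPM and Gata4 at 65.1 CPM.

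Across those 13 sums, the genes whose level was most like that of a factor were listed by the Pearson correlation of log2(CPM + 10), as a description over sums that share libraries and differ in depth. Nkx6-3 was most like Abca3 (r = 0.93), Gata5 (0.92) and Sult1d1 (0.90), and Hnf4a most like Tspan13 (0.93), Nrip1 (0.92) and Pip5k1b (0.92). Spdef was most like Arhgap24 (0.94), Tuba4a (0.93) and Foxp4 (0.92), and Sox9 most like Hacd1 (0.94), Plcl1 (0.91) and Srpra (0.90). Cdx2 was most like Apoc2 (0.98), Muc13 (0.97) and Glb1 (0.97), a likeness set by the 1 intestinal sum among the 13. Sox2 was most like Tmbim1 (0.97), Ctsh (0.94) and Ddb1 (0.93), Foxa1 most like Smarcd2 (0.94), Lbr (0.93) and Ecd (0.92), and Foxa2 most like Lrrc42 (0.95), Kifap3 (0.94) and Fam216a (0.93). Single sums stand out for the last 2 factors as well. Foxa1 was at 5.92 CPM in the intestinal sum, its lowest, and Foxa2 at 58.3 CPM in the enteroendocrine sum, against 22.0 CPM in the next. Gata4 was most like Cystm1 (0.84), Akap1 (0.83) and Rgmb (0.83), and Gata6 most like Ahcyl2 (0.95), Trp53inp2 (0.94) and Taco1 (0.94). Among the factors themselves, Foxa1 and Cdx2 had r = -0.89, with the intestinal sum the lowest for Foxa1 and the highest for Cdx2. Gata4 and Gata6 had r = 0.57, Sox2 and Gata6 had r = -0.78, and Sox9 and Spdef had r = 0.64.

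Outside the epithelium, Sox2, Gata6 and Sox9 stood above their macrophage level in every library, Sox2 in enteric glia and the other 2 in several classes. Sox2, which glia use to keep a progenitor state, stood at 43.1 CPM in YAP5SA enteric glia, 83.9 CPM in the Yap knockout and 53.0 CPM in the control, against 1.77, 0.599 and 1.33 CPM in macrophages. Gata6 stood at 99.98 CPM in 38 YAP5SA mesothelial cells, 158 CPM in 23 Yap knockout cells and 125 CPM in 164 control cells, at 36.3, 44.3 and 51.0 CPM in endothelial cells and at 26.5, 24.4 and 30.7 CPM in fibroblasts, against 6.25, 4.79 and 5.76 CPM in macrophages. Sox9 stood at 41.1 CPM in YAP5SA pericytes, 35.6 CPM in the Yap knockout and 43.3 CPM in the control, and at 33.4, 42.1 and 50.4 CPM in interstitial cells of Cajal, besides the fibroblast levels above, against 6.94, 4.79 and 9.74 CPM in macrophages. Gata4 stood at 14.5 CPM in YAP5SA smooth muscle, 24.2 CPM in the Yap knockout and 18.5 CPM in the control, against 11.2, 4.49 and 9.74 CPM in macrophages, so that in YAP5SA it was close to the macrophage level. Of the 4 factors at 5 CPM or more in non-epithelial YAP5SA or control cells, 0 were 2-fold higher or lower in YAP5SA, against 5.73% and 2.95% of 13067 genes. Of the 6 in the Yap knockout comparison, 2 were at least 2-fold higher, Sox2 and Hnf4a, against 9.16% of 13565 genes, and 0 were lower, against 4.09%. Sox2 there stood at 11.3 CPM in the Yap knockout against 4.36 CPM in the control, while enteric glia were 8.51% of Yap knockout cells against 4.10% of control cells. Within glia, Hnf4a at 13.4 CPM and Cdx2 at 5.06 CPM from 14 UMIs were also found in the Yap knockout, against 3.15 CPM and 1.05 CPM in the control. Those 14 were all the Cdx2 UMIs of Yap knockout non-epithelial cells. Whether epithelial cells or their RNA entered the glia gate was not tested.

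**Figure D4:**
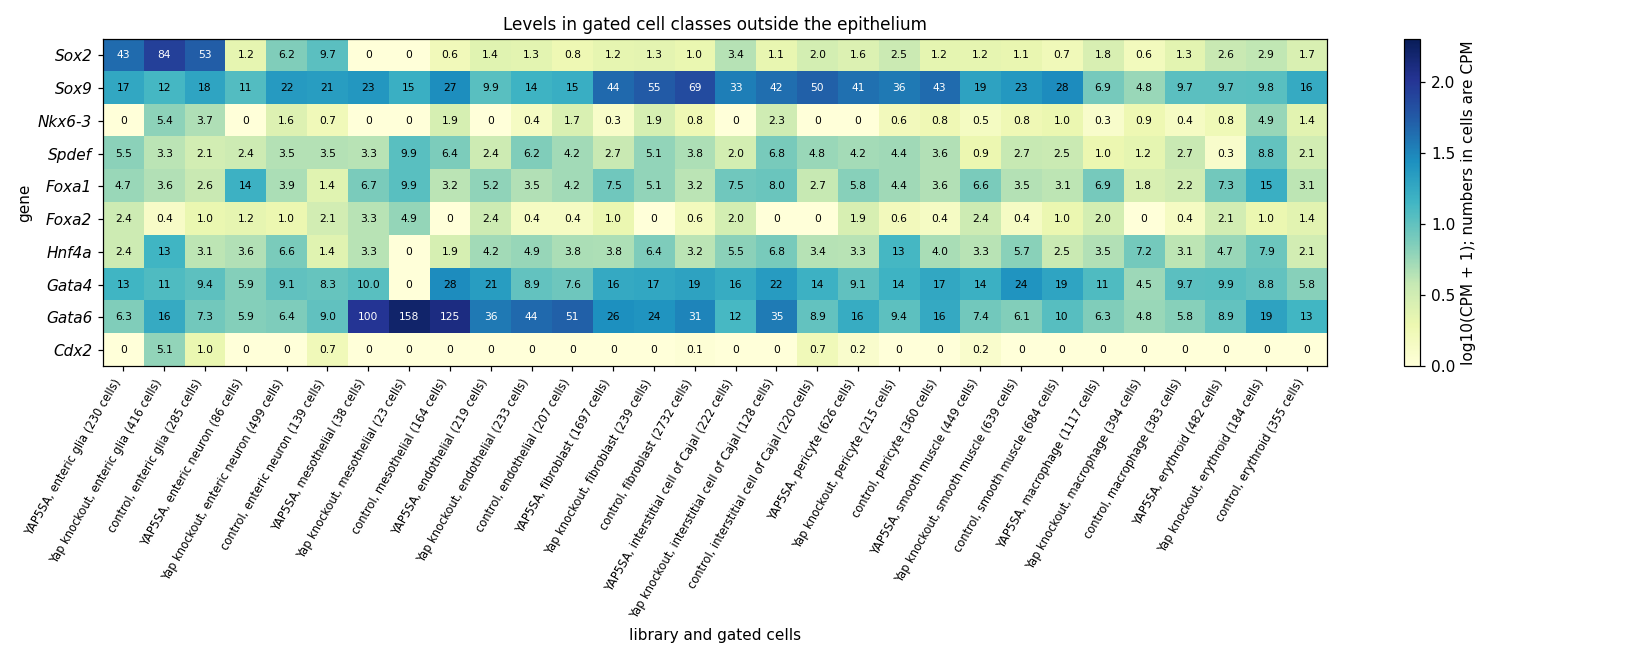
CPM of each factor (rows) in gated cell classes outside the epithelium (columns, with cell numbers) for each library, coloured by log10(CPM + 1). Sox2 is at 43.1 to 83.9 CPM in the enteric glia columns, Gata6 at 99.98 to 158 CPM in the mesothelial ones and Sox9 at 44.0 to 69.1 CPM in fibroblasts, while Nkx6-3 does not pass 5.42 CPM.

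The other factors of the gut endoderm split in YAP5SA. Of 11 measured, 5 were at least 2-fold higher and 4 at least 2-fold lower than in the control, beside the 12.4% and 10.6% of all genes given above, which are also the shares to read the next lists against. Onecut1, a liver and biliary factor, stood at 8.83 CPM in YAP5SA against 0.258 CPM from 1 UMI in the control, a ratio of 34.3 (6.06 to 1363). Sox17, which marks early endoderm and the biliary tree and also endothelium, stood at 16.9 CPM in YAP5SA against 3.09 CPM, 5.45-fold (3.07 to 10.7) higher. Hhex, a factor of liver and early foregut that endothelium also uses, stood at 12.9 CPM against 3.35 CPM, 3.86-fold (2.21 to 7.37) higher. The 6 endothelial markers summed to 74.2 CPM in YAP5SA and 107 CPM in the control epithelium, and their part in these levels was not tested. Nkx6-2, a homeodomain factor of the stomach, stood at 0.866 CPM in YAP5SA against 18.3 CPM, and Hnf4g, the paralog of Hnf4a, at 1.96 CPM against 15.97 CPM. With squamous, intestinal, hepatic and pancreatic cells left out the counts were again 5 higher and 4 lower of 11. In the Yap knockout 1 of 10 was at least 2-fold higher, Cdx1, at 5.40 CPM against 1.29 CPM in the control, and 0 were lower, beside 5.18% and 5.17% of all genes.

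Factors of the gastric cell lineages were lower in YAP5SA, 8 of 9 by at least 2-fold and 0 higher, and the part of cell make-up was not tested. The lists share genes, so their counts are not independent. Creb3l1 and Creb3l4 are also on the Spdef-associated list, and Isl1 on the stomach mesenchyme list. Of the other endoderm factors, Foxa3 is also on the Spdef-associated list and Cdx1 on the Cdx2-regulated one. Sox17 and Sox21 are also on the Sox list, and Gata5 on the GATA list. Creb3l4 stood at 1.44 CPM in YAP5SA against 25.2 CPM in the control, Esrrg, an orphan receptor of parietal cells, at 2.37 CPM against 30.1 CPM, and Bhlha15, which enlarges the secretory apparatus of chief cells, at 1.27 CPM against 12.9 CPM. Xbp1, the secretory pathway regulator, stood at 72.7 CPM against 115 CPM. Esrrg was the 1 of 9 at least 2-fold higher in the Yap knockout, at 68.8 CPM against 30.1 CPM, beside the larger number of parietal cells there. General epithelial factors differed less: 2 of 9 were at least 2-fold lower in YAP5SA, Ovol1 and Tfcp2l1, and 0 higher, while Elf3 stood at 143 CPM against 240.1 CPM. Of these 9, 1 was at least 2-fold higher in the Yap knockout, Grhl1, at 12.6 CPM against 5.41 CPM, and 0 were lower. Of the squamous factors 2 of 9 were measured in YAP5SA: Foxe1 was higher, at 6.35 CPM against 0.258 CPM from 1 UMI, and Irx5 lower, at 1.33 CPM against 5.15 CPM.

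Within the Sox family, 3 of 10 measured genes were at least 2-fold higher in YAP5SA and 2 lower, against 12.4% and 10.6% of all genes. Sox17, Sox6 and Sox11 were the higher ones, Sox6 at 44.7 CPM in YAP5SA against 16.5 CPM in the control, and Sox21 and Sox7 the lower ones, Sox21 at 5.31 CPM against 16.5 CPM. Of 9 Sox genes measured in the Yap knockout, 0 were 2-fold higher or lower. Of the other GATA genes and their cofactors, 2 of 3 were at least 2-fold lower in YAP5SA, Gata5 and the cofactor gene Zfpm1; Zfpm1 stood at 37.3 CPM against 76.8 CPM. Stomach mesenchyme factors were lower too, 6 of 8 in YAP5SA and 2 of 8 in the Yap knockout; among them Barx1, which mesenchyme uses to specify the stomach, stood at 33.2 CPM in YAP5SA, 45.0 CPM in the Yap knockout and 91.7 CPM in the control epithelium. The summed fibroblast markers given above were also lower in both genotypes than in the control, and their part in this was not tested. YAP and TEAD targets were read as a check of the genotypes: 8 of 9 were at least 2-fold higher in YAP5SA and 0 lower, and in the Yap knockout 1 of 7, Axl, was at least 2-fold lower and 0 higher. The median log2 ratio of those 7 was -0.60, while Ccn2 was 1.54-fold (1.11 to 2.18) higher in the Yap knockout. The part of fibroblast RNA in the Axl level was not tested.

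**Figure D5:**
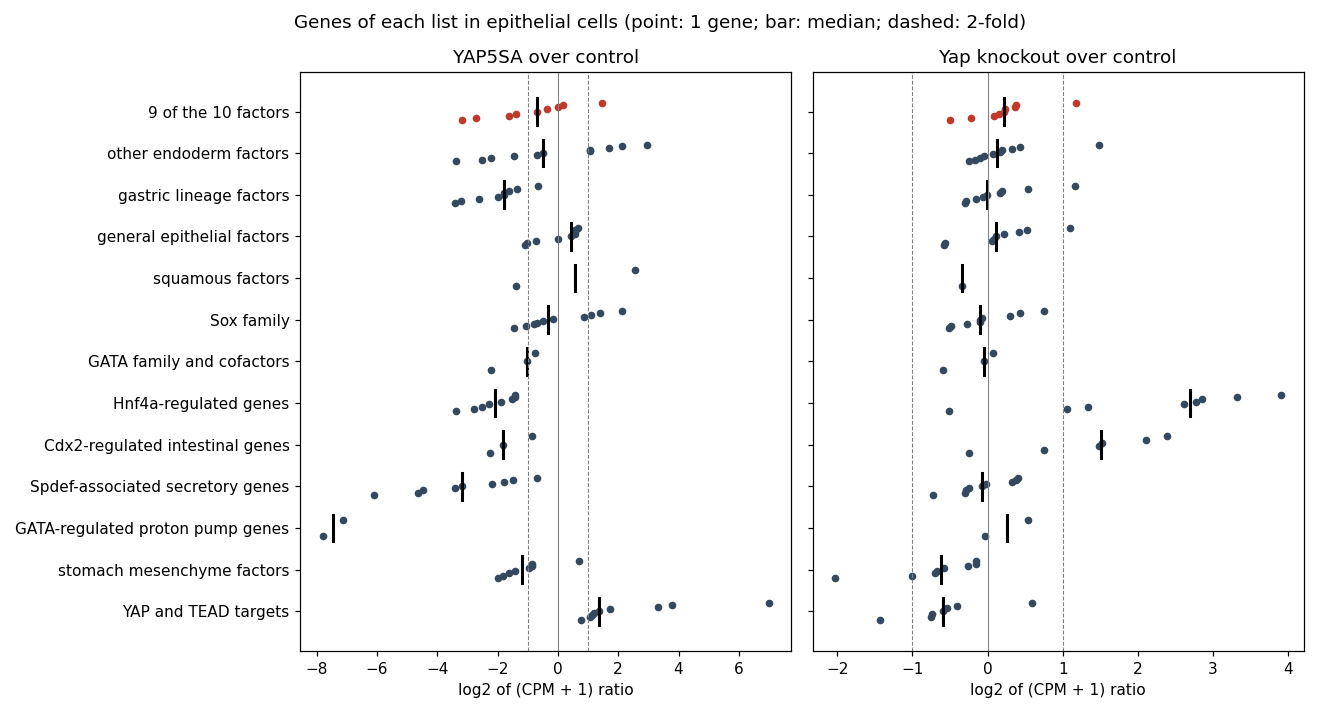
Log2 ratio of CPM + 1 in epithelial cells for YAP5SA over control (left) and Yap knockout over control (right), 1 point per gene with at least 5 CPM in either library, by list, with the list's median as a bar and 2-fold as dashed lines. The medians of the Spdef-associated and gastric lineage lists lie at -3.17 and -1.77 in YAP5SA, and those of the Hnf4a-regulated and Cdx2-regulated lists at 2.69 and 1.51 in the Yap knockout, or 0.53 and 0.38 with squamous, intestinal, hepatic and pancreatic cells left out.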

How the data were processed

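Mouse hindstomach cells were profiled with a droplet 3′ method after mincing, trypsin and DNase I digestion and red cell lysis, per the labels' protocols. The authors deposited raw UMI counts for every gene in every cell; PISA 1.0 is the writer named in the file headers, and STAR and GRCm39 are named in the submitters' processing notes. From them, cells with at least 500 genes and at most 20% mitochondrial UMIs were kept, and the 6% with the highest Scrublet scores in each library were removed as doublets (511 in YAP5SA, 311 in the Yap knockout and 413 in the control), since its own threshold called 0. Cells were gated by marker genes that exclude the 10 factors, with at least 3 UMIs over 2 markers and, for subtypes, a level above the 99 percentile of fibroblasts of the same library. A class also needed a marker enrichment of at least 1.5 over the mean of the libraries. Cells of no class that passed a subtype gate and held a UMI of an epithelial marker were added to the epithelium. UMIs were summed per library and gate. Ratios have exact conditional Poisson intervals, shares of cells Clopper-Pearson ones. Log2 ratios of lists used a pseudocount of 1 CPM. For shares, each cell was also thinned to 1000 UMIs, which every kept cell reached. Besides gate markers and genotype checks, up to 3 genes were named from each end of a list ranked by ratio, given 5 CPM or more in a library compared, and the 3 genes most like each factor. The members and lists were chosen with earlier results of these data known. The tools were scanpy 1.11.5, scipy 1.17.1, numpy 2.4.6 and pandas 2.3.3 under Python 3.11.15, with matplotlib 3.10.9 for plots, and interval code was tested on simulated data. Organoid RNA-seq was not analysed here.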

Additional observations from a re-analysis of the deposited data

Results flagged for a closer look

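Sox9 stood on opposite sides of the control in 2 groups of Yap knockout epithelial cells. The ratio of Yap knockout over control was 1.6424 in pit cells, at 36.8 CPM against 22.4 CPM, and 0.61528 in cells without a subtype, at 55.7 CPM against 90.5 CPM. The difference between these ratios was not tested, since each genotype has 1 library. With pit cells taken by 3 UMIs over 2 markers alone, Sox9 was 42.6 CPM in the Yap knockout and 41.99 CPM in the control.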

How the results depend on the processing

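In YAP5SA the counts of factors at least 2-fold higher or lower were 1 and 4 under every alternative run. For the Yap knockout, 2 factors rather than 1 were at least 2-fold higher with no filter on low values, where Cdx2 is added, and 2 with only cells gated by epithelial markers, an alternative chosen after seeing the data. With the non-epithelial profile subtracted, Hnf4a was no longer 2-fold higher (160.7 CPM in the Yap knockout and 86.7 CPM in the control), Cdx2 took its place as the 1 factor called higher (5.90 CPM and 2.54 CPM), and 1 rather than 0 was lower, Sox2, at 12.4 CPM in the Yap knockout and 26.9 CPM in the control; the cause was not tested. Hnf4a in the Yap knockout had a log2 ratio of 1.18, and between 0.88 and 1.30 over 9 alternatives. In the Yap knockout the log2 ratio of Sox2 was -0.50, and 0.03 with squamous, intestinal, hepatic and pancreatic cells left out. Of 180 factor ratios recomputed in the epithelium, 163 stayed within the main interval and 17 did not. Within subtypes and cells without a subtype 151 of 153 stayed within it. Of 60 shares of cells with a UMI, 29 moved, all on thinning each cell to 1000 UMIs, which lowers every share. Of 65 list medians 7 moved, with a pseudocount of 5 CPM or with squamous, intestinal, hepatic and pancreatic cells left out; without those cells the Hnf4a-regulated median was 0.53 in place of 2.69 in the Yap knockout and -3.67 in place of -2.09 in YAP5SA, and the Cdx2-regulated one 0.38 in place of 1.51 in the Yap knockout. TMM scaling put the median log2 ratio of all genes in YAP5SA at 0.20 in place of 0.09. The YAP5SA pit cells could not be recomputed at 2500 UMIs per cell or at the highest free-RNA level, because under 30 cells were left. The list counts without non-gastric cells were also chosen after seeing the data. No paired analysis was possible because each genotype has 1 library. What depth limits is Cdx2, with 18, 31 and 6 epithelial UMIs in YAP5SA, the Yap knockout and the control, and the small subtypes.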
